A study of Mus musculus with 10 samples.

Results

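Melanin synthesis and melanosome genes were followed in 5 RNA libraries from mouse eyeballs, 3 from animals kept under blue light and 2 from animals kept in natural light. The set holds 10 genes named by symbol: Tyr, Tyrp1, Dct, Pmel, Oca2, Slc45a2, Mlana, Gpr143, Slc24a5 and Mitf. All 10 were found among the 24736 gene symbols of the deposited mRNA table, and all 10 passed the filter on low counts that 18988 genes passed. The blue light animals were housed in a dark container with an 18 W lamp, and the control animals under natural light; per the labels all were female Kunming mice, 4 weeks old, and the titles of both groups carry day 14. Nothing in the labels ties each library to its own animal, so p-values rest on the variation among these libraries, part of which could be technical.

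Melanin is made in melanosomes, organelles related to lysosomes. In the eye these sit in the retinal pigment epithelium (RPE), the cell layer behind the photoreceptors, and in the melanocytes of choroid and iris, which come from the neural crest. Tyrosinase (Tyr) starts the pathway by oxidising tyrosine, Dct and Tyrp1 are related enzymes of later steps, Pmel forms the fibrils on which pigment is laid down, and Mitf is the transcription factor that drives many of these genes. Kunming mice are an albino stock, and albino mice keep pigment cells that lack working tyrosinase; the labels give no coat colour and no Tyr genotype. An eyeball library averages over all tissues of the globe, and in such bulk RNA fewer pigment cells and less mRNA per cell cannot be told apart.

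Mitf binds short sequences of the E-box family, and the form found in pigment genes is called the M-box. RefSeq promoter windows (GRCm38.p6, the assembly called mm10), which run from 250 bases before to 50 bases after an annotated start, were matched for 6 of the 10 genes, with 3 windows for Mitf. The longest run of letters shared by the windows of Tyr, Tyrp1 and Dct, the 3 related enzymes, was 10 bases long, GTCATGTGCT, and holds the core of the M-box. Searched on both strands, it stood in 61 of all 32851 windows (0.186%). The 3 enzymes hold it because it was read from their windows, so its presence there is no finding. The shorter run TCATGTG lies within the longer one, and of the 3 matched genes not used to define it 1 held it, Slc24a5, while none of the 3 windows of Mitf nor that of Oca2 did; it stood in 1239 of all windows (3.77%). The E-box CACGTG stood in none of the windows of these 6 genes and in 7.15% of all windows. The windows of the 4 genes are shown 5′ to 3′ on the gene's strand to place this run, which is not common to the whole set: Pmel, Slc45a2, Mlana and Gpr143 had no window to search. Capitals mark GTCATGTGCT in the 3 enzymes and, in Slc24a5, CACATGA, which is TCATGTG read on the other strand. Each is a match of letters and not a measured binding site.
Tyr (chr7:87493463-87493762, minus strand): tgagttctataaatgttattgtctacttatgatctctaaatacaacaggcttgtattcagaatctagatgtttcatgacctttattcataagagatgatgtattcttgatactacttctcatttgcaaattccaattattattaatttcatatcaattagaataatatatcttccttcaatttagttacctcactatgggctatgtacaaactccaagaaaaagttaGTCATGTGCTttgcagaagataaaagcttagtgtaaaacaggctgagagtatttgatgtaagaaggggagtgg
Tyrp1 (chr4:80833963-80834262, plus strand): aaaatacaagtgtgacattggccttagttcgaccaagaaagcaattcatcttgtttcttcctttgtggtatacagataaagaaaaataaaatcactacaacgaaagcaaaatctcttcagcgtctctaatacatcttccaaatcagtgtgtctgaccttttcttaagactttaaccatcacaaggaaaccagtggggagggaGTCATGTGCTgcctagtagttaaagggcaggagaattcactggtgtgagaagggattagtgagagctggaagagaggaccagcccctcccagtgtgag
Dct (chr14:118052197-118052496, minus strand): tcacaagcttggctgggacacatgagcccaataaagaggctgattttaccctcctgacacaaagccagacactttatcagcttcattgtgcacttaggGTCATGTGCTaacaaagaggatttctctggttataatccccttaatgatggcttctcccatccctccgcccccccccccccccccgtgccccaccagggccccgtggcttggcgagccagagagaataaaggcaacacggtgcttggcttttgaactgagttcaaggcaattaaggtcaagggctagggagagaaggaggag
Slc24a5 (chr2:125067877-125068176, plus strand): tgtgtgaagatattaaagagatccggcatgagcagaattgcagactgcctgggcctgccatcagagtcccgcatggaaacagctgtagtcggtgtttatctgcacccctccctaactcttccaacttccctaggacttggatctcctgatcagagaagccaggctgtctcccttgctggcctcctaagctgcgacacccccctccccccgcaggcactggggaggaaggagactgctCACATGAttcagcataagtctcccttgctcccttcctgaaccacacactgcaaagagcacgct
The first capital letter lies 23 bases before the annotated start of Tyr and 48 before that of Tyrp1. It lies 152 before that of Dct and 13 before that of Slc24a5. These are the starts on which the windows were set. The gene span of Tyrp1 begins at 80834123, upstream of the start used here, and its capitals lie inside that span. Dct also holds TCATGTG on the other strand, 232 bases before its start. Slc24a5 codes for a potassium-dependent sodium and calcium exchanger of melanosomes and is no relative of the 3 enzymes.

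Library totals lay between 87071487 and 107660103 estimated counts. The precursor ribosomal RNA gene Rn45s took 8.69% to 14.4% of the blue light libraries and 4.30% and 14.1% of control A and B, so levels were scaled with trimmed means of M values (TMM) and are given as CPM, counts scaled to a common library total. A list of 10 rod markers checks that the samples hold retina. All 10 were lower in every blue light library than in both controls, against 20.1% of all genes tested. In edgeR 9 passed, all lower, against 1.55% of all genes called lower, and in DESeq2 10 passed, against 9.67% called. The median log2 fold change of the 10 was -1.61. Their summed level was 4170 to 7683 CPM in blue light libraries and 22005 to 23085 CPM in control libraries. Lens markers summed to 35762 to 38182 CPM under blue light and 35910 to 35934 CPM in controls. Other tissues of the globe and its surroundings were less even. Skeletal muscle markers summed to 1083, 526 and 543 CPM in blue A, B and C and to 506 and 1076 CPM in control A and B, and 7 adipocyte markers to 16.5, 4.65 and 12.6 CPM under blue light and 2.64 and 4.91 CPM in the controls. Of the 7, edgeR called 1, Cfd (higher under blue light), against 2.22% of all genes, and DESeq2 called 3, against 9.67%. In at least 1 library 3 of the 7 were at 0. The part of these tissues in the values of the 10 genes was not tested. Across all 18988 genes, 421 passed an adjusted p of 0.05 in edgeR's quasi-likelihood test (2.22%), 126 of them higher and 295 lower under blue light, or 124 higher and 150 lower with library totals as the only scaling. That count was 11 without blue C, 277 without blue B and 8 without control A. Leaving out control B gave 0 in edgeR, with 2872 genes under 0.05 before adjustment.

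The question put to the 10 genes was whether their mRNA differs between blue light and natural light eyeballs. None of the 10 passed the test over all genes in edgeR, against 2.22% of all genes. Before adjustment 1, Tyr, had a p under 0.05, against 16.3% of all genes; DESeq2 called 1, again Tyr, against 9.67% of all genes, and limma-voom called 0, against 2.41%. All 10 log2 fold changes, which are blue light over natural light, were above 0, as were 49% of those of all genes. They ran from 0.02 for Mitf to 0.49 for Slc45a2, with a median of 0.19, a 1.14-fold higher level, beside a median of -0.01 over all genes tested. The median was 0.08 without control A, 0.35 without control B and 0.29 without blue A. The 10 genes share cells and libraries, so their signs are not 10 separate observations. Their summed level was 1531, 1872 and 1884 CPM in blue A, B and C (mean 1762 ± 201, SD, n = 3) and 1366 and 1769 CPM in control A and B (mean 1567 ± 285, SD, n = 2). Control B lay above blue A, and the groups overlapped.

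**Figure D1:**
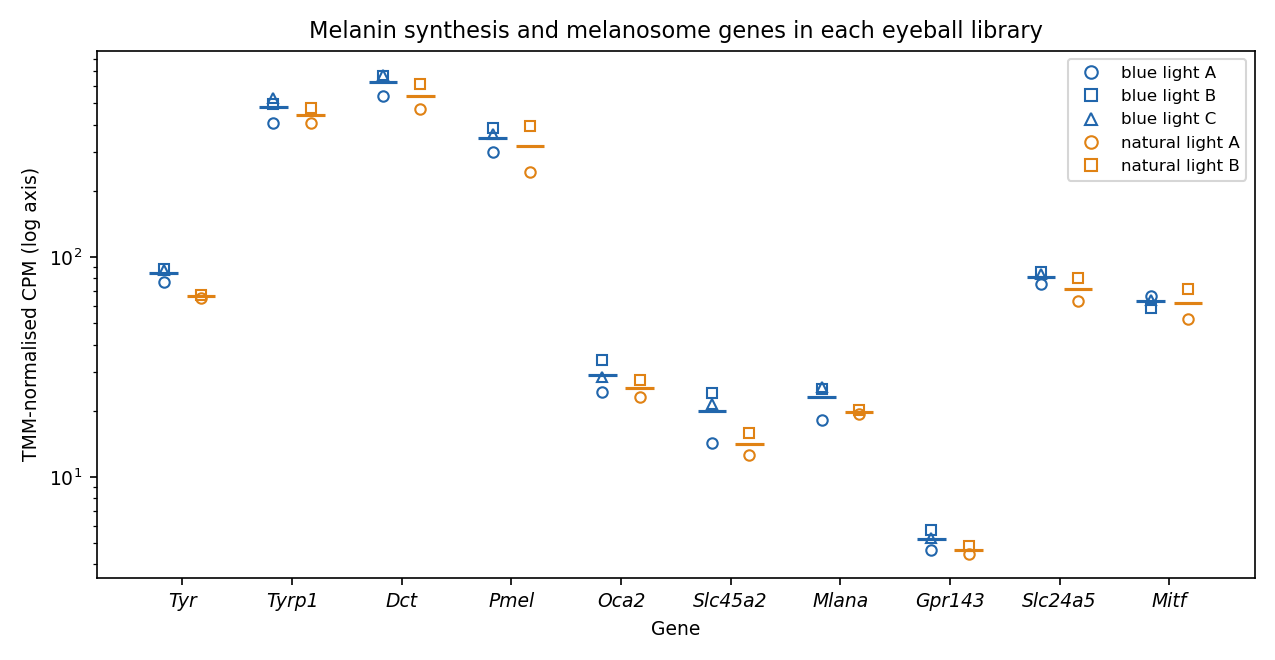
TMM-normalised CPM of each gene on a log axis, with blue light libraries (blue symbols) left of natural light libraries (orange symbols); symbol shape gives the library letter and horizontal bars the group means. Only the points of Tyr do not overlap between groups, at 77.4 to 88.7 CPM under blue light and 65.0 to 67.4 CPM under natural light.

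Tyrosinase (Tyr, chromosome 7 from 87424771 to 87493512, mm10) makes the first and rate-limiting step of melanin synthesis. It stood at 77.4, 88.7 and 87.1 CPM in blue A, B and C and at 65.0 and 67.4 CPM in control A and B. Every blue light library lay above both controls, the only one of the 10 genes for which this held, against 15.6% of all genes tested. The log2 fold change was 0.35 (standard error, SE, 0.088, adjusted p = 0.131 in edgeR), with a 95% interval, not adjusted for the number of genes, from 0.13 to 0.57. DESeq2 put it past the threshold (log2 fold change 0.37, adjusted p = 0.00747 in DESeq2).

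Tyrp1 (chromosome 4 from 80834123 to 80851736) acts late in the synthesis of black and brown eumelanin and steadies tyrosinase. It stood at 409, 499 and 532 CPM in blue A, B and C and at 409 and 474 CPM in the controls. Blue A lay level with control A, and the groups overlapped (log2 fold change 0.12, SE 0.13, adjusted p = 0.728 in edgeR). With 1 library left out the log2 fold change of Tyrp1 ran from 0.04 (without blue C) to 0.24 (without blue A). Dct (chromosome 14 from 118012790 to 118052246), dopachrome tautomerase, converts dopachrome to its carboxylated product. Its levels were 540, 665 and 676 CPM in the blue light libraries and 472 and 612 CPM in control A and B. Blue B and C were above both controls and blue A lay between them (log2 fold change 0.21, SE 0.15, adjusted p = 0.568 in edgeR). The log2 fold change of Dct was 0.06 without control A and 0.41 without control B.

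Pmel (chromosome 10 from 128695888 to 128720238), the fibril protein, stood at 302, 386 and 362 CPM under blue light and at 245 and 395 CPM in control A and B. Its highest and lowest levels were both in controls, and control B exceeded control A by 0.69 on the log2 scale, against 0.13 between the groups (SE 0.22, adjusted p = 0.830 in edgeR). The log2 fold change was -0.15 without control A and 0.52 without control B. Mlana (chromosome 19 from 29697541 to 29708447), a small membrane protein that human melanoma cells need for Pmel to mature, had 18.2, 25.0 and 25.8 CPM in blue A, B and C and 19.4 and 20.1 CPM in the controls. Blue A was the lowest of the 5 libraries, while blue B and C were the highest (log2 fold change 0.22, SE 0.17, adjusted p = 0.591 in edgeR), and leaving out 1 library gave 0.13 (without blue C) to 0.38 (without blue A).

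The transporters Oca2, Slc45a2 and Slc24a5 set the ions and acidity inside the melanosome. Slc45a2 (chromosome 15 from 11000721 to 11029233) stood at 14.3, 24.0 and 21.5 CPM under blue light and at 12.6 and 15.8 CPM in control A and B. It had the largest difference of the 10 genes, 0.49 on the log2 scale (SE 0.24, adjusted p = 0.394 in edgeR), and also the widest spread inside the blue light group, 0.75 between blue B and blue A. Its 95% interval ran from -0.11 to 1.09, and leaving out 1 library gave 0.36 (without blue B) to 0.70 (without blue A). Oca2 (chromosome 7 from 56239593 to 56536518), the gene of pink-eyed dilution, had 24.3, 34.2 and 28.5 CPM under blue light and 23.0 and 27.5 CPM in the controls (log2 fold change 0.20, SE 0.17, adjusted p = 0.629 in edgeR). Slc24a5 (chromosome 2 from 125068127 to 125088677) had 75.1, 85.5 and 83.7 CPM under blue light and 63.2 and 80.3 CPM in control A and B (log2 fold change 0.18, SE 0.12, adjusted p = 0.542 in edgeR). In both of these genes blue A lay between the controls. Leaving out 1 library gave 0.08 (without blue B) to 0.33 (without control B) for Oca2 and 0.05 (without control A) to 0.36 (without control B) for Slc24a5.

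Gpr143 (chromosome X from 152781921 to 152808651) codes for the receptor on melanosome membranes that is mutated in human ocular albinism. Its levels were 4.67, 5.73 and 5.27 CPM in the blue light libraries and 4.46 and 4.87 CPM in the controls, from 394 to 615 estimated counts a library. Blue A again lay between the controls (log2 fold change 0.16, SE 0.17, adjusted p = 0.699 in edgeR; 0.11 without blue B and 0.26 without blue A). Mitf (chromosome 6 from 97807002 to 98021360) is transcribed from several starts, which the table does not separate. It stood at 66.6, 58.5 and 63.6 CPM under blue light and at 52.5 and 71.7 CPM in the controls. All 3 blue light libraries lay between the controls, and the difference was the smallest of the 10 (log2 fold change 0.02, SE 0.15, adjusted p = 0.969 in edgeR), with an interval from -0.34 to 0.38. Its sign turned without blue A (-0.01) and without control A (-0.16), and it was 0.26 without control B.

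**Figure D2:**
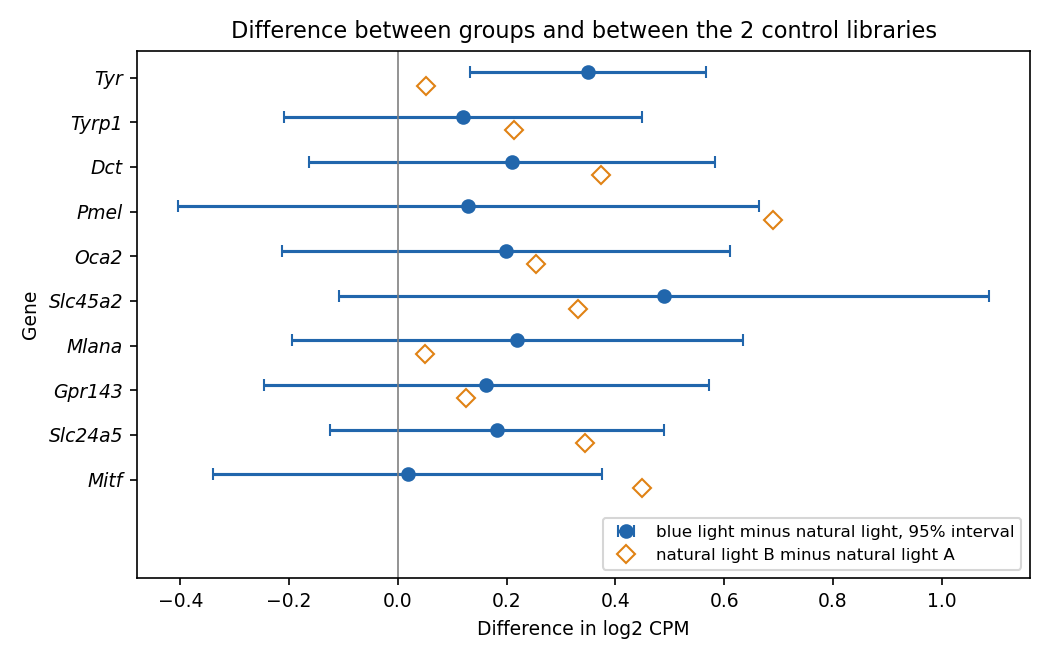
Difference in log2 CPM for each gene: filled circles are blue light minus natural light from edgeR with 95% intervals, and open diamonds are control B minus control A. Intervals of 9 genes reach below 0, all but that of Tyr, and in 6 genes the 2 controls differ from each other by more than the groups do.

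The spread between libraries was as large as these differences for most of the 10 genes. In 6 of the 10 genes the controls differed from each other by more than the groups did, as in 53% of all genes tested. In 9 of the 10, all but Tyr, the blue light libraries ranged over more than the difference between groups. For this last count no share of all genes was computed. Control A held the lowest level of 8 genes, and blue A that of the other two, Tyrp1 and Mlana. The highest level was in blue B for 5 genes, in blue C for 3 and in control B for 2, Pmel and Mitf.

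The 10 genes were also set against each other inside each library, where scaling plays no part. Such shares follow transcript length, so they compare libraries for 1 gene and not genes with each other. Tyr made up 5.06%, 4.74% and 4.62% of the counts of the 10 genes in blue A, B and C and 4.76% and 3.81% in control A and B, so its groups overlapped on this measure. The share of Dct was 35.2%, 35.5% and 35.9% under blue light and 34.6% in each control, and that of Slc45a2 was 0.934%, 1.28% and 1.14% under blue light and 0.920% and 0.894% in the controls. In these 2 of 10 genes, singled out after their values were seen, the blue light libraries lay above both controls. The other 8 overlapped, and no test was made on shares. No background over all genes was computed for shares. On CPM, every blue light library lay above both controls in 15.6% of all genes tested.

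Markers of the 2 kinds of pigment cell were read beside the genes. How much of the RNA of these markers came from other cells of the eyeball was not tested. The counts of these and of the pathway lists stand against the same shares of all genes, 2.22% called in edgeR, 16.3% with a p under 0.05 before adjustment, 9.67% called in DESeq2 and 2.41% in limma-voom. Of 14 RPE markers outside melanin synthesis 0 passed in edgeR; 2 had a p under 0.05 before adjustment, while DESeq2 called 2 and limma-voom 0. Their median log2 fold change was -0.09, 3 were above 0 and 11 below, and their summed level was 1485 to 1679 CPM under blue light and 1564 and 1598 CPM in the controls; none was at 0 in any library. Stra6, the receptor for retinol-binding protein, stood at 38.4, 42.1 and 39.6 CPM under blue light and at 51.9 and 54.1 CPM in the controls (log2 fold change -0.40, adjusted p = 0.0699 in edgeR and 0.000789 in DESeq2). Every blue light library lay below both controls, as in 20.1% of all genes tested. Of the 14 RPE markers this held for 2, and in 1 every blue light library lay above both controls, against 15.6% of all genes. The thyroxine carrier Ttr had a log2 fold change of 0.37 (adjusted p = 0.194 in edgeR and 0.0316 in DESeq2), the retinol dehydrogenase Rdh10 -0.20 (adjusted p = 0.393 in edgeR) and Ermn -0.11 (adjusted p = 0.668 in edgeR).

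Of 6 markers of neural crest melanocytes 0 passed in edgeR; 1 had a p under 0.05 before adjustment, while DESeq2 called 1 and limma-voom 0. Their median log2 fold change was -0.02. Several also mark other cells of the eye, Kit and Ednrb among them. The melanocortin receptor Mc1r, through which melanocyte-stimulating hormone acts, stood at 3.17, 3.30 and 3.68 CPM under blue light and at 5.29 and 7.16 CPM in the controls (log2 fold change -0.88, SE 0.19, adjusted p = 0.101 in edgeR and 0.00330 in DESeq2). The endothelin receptor Ednrb had 107, 106 and 129 CPM under blue light but 40.8 and 98.7 CPM in control A and B (log2 fold change 0.71, adjusted p = 0.405 in edgeR). The receptor kinase Kit had a log2 fold change of -0.13 (adjusted p = 0.427 in edgeR), and the transcription factor Pax3 0.43 (adjusted p = 0.475 in edgeR). The summed level of the 6 was 205 to 229 CPM under blue light and 144 and 215 CPM in the controls.

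**Figure D3:**
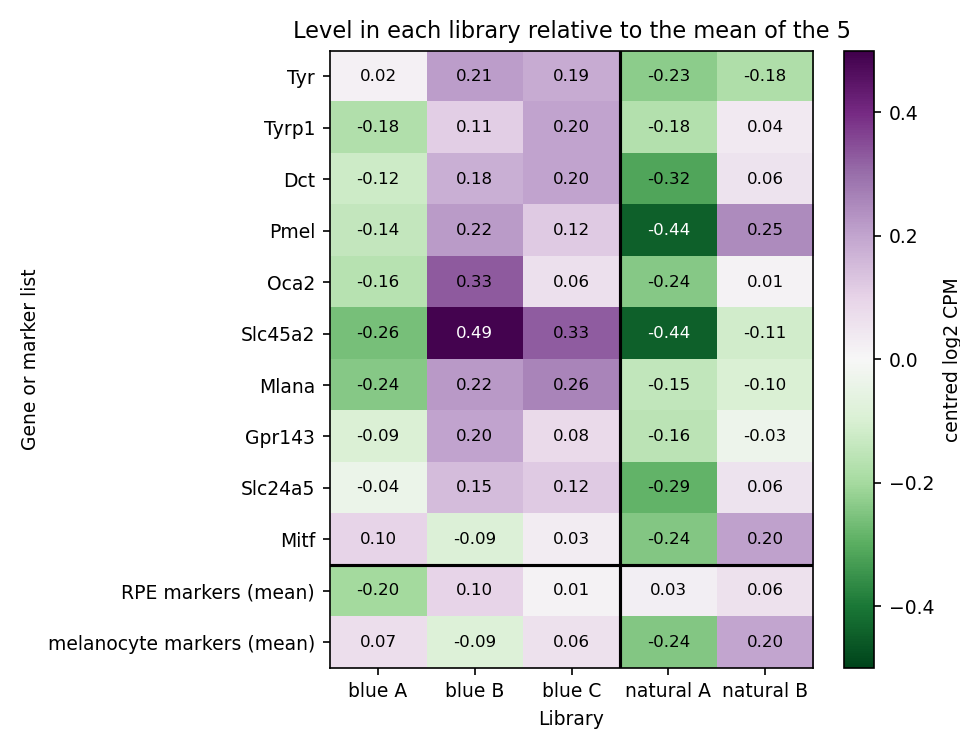
Log2 CPM of each of the 10 genes (rows) in each library (columns), after subtracting the gene's mean over the 5 libraries, above the mean of the same quantity over 14 RPE markers and 6 melanocyte markers. The lowest values are -0.44 for Pmel and Slc45a2 in natural light A, and the row of Mitf runs close to that of the melanocyte markers.

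Likeness was measured as the Euclidean distance over the 5 libraries between log2 CPM values centred on each gene's mean. For 9 genes the nearest of 3 profiles was the mean of the remaining members of the set, at distances from 0.087 for Dct to 0.47 for Slc45a2. Mitf was the exception. It lay 0.041 from the mean of the melanocyte markers, to which it does not belong, 0.47 from the RPE markers and 0.47 from its fellow genes. The distance of the other 9 genes to the melanocyte markers was 0.30 to 0.80. This comparison of 3 profiles was chosen after the values were seen. With 5 libraries and a marker mean that follows the low level of Ednrb in control A, it is a description of these samples. Skeletal muscle markers were not among the profiles. Their centred mean put the 5 libraries in the same order as Mitf, over a wider range (-1.05 in control A to 1.08 in control B).

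Among all other tested genes, the 6 whose profile lay nearest to the mean of the 10 were Saysd1, Helb, Prim1, Prr5l, Cox16 and Arl10, at distances from 0.051 to 0.091. Saysd1 had 2.99, 3.87 and 3.77 CPM under blue light and 2.73 and 3.31 CPM in the controls. They were chosen for that likeness, so their small differences between the groups, 0.15 to 0.23 on the log2 scale, follow from the choice.

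The rest of the pathway was described by 5 lists with 56 genes, of which 55 were in the table and tested. Of these 55 genes 1 rose and 0 fell in edgeR, against 0.664% and 1.55% of all genes. Before adjustment 16 of the 55 had a p under 0.05, against 16.3% of all genes. DESeq2 called 8 of the 55 (against 9.67%) and limma-voom 1 of the 55 (against 2.41%). The median log2 fold change was 0.05. The gene that rose was Slc7a11, the cystine transporter whose loss gives the subtle gray coat. It stood at 63.8, 73.6 and 68.8 CPM under blue light and 34.3 and 35.6 CPM in the controls. Which cells of the eyeball its rise came from was not tested. The groups were far apart beside their spread (log2 fold change 0.98, SE 0.090, adjusted p = 0.0172 in edgeR). With 1 library left out its log2 fold change stayed between 0.95 and 1.04. Its adjusted p in edgeR was 0.0143 without blue A and 0.0314 without blue B, but 0.0810 without blue C, 0.137 without control A and 0.101 without control B.

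Slc7a11 stood in a list of 10 genes for melanosome ions and further cargo, with a median of 0.24. Of these 1 passed in edgeR; 6 higher and 1 lower had a p under 0.05 before adjustment, while DESeq2 called 3 (Slc7a11, Apoe and Cd63) and limma-voom 1. In 6 of the 10 every blue light library lay above both controls, against 15.6% of all genes. In 1 every blue light library lay below both, against 20.1%. Which cells of the eyeball the levels of these 10 genes came from was not tested. Apoe, an apolipoprotein on which Pmel fibrils form, had 752, 544 and 624 CPM under blue light and 370 and 368 CPM in the controls (log2 fold change 0.79, adjusted p = 0.0594 in edgeR and 4.04e-06 in DESeq2). In edgeR Apoe passed without blue A (0.0446) and without blue B (0.0458). It did not pass in edgeR without blue C (0.179) or with the library letter as a block (0.379). Its log2 fold change was 0.82 without control A and 0.79 without control B. The tetraspanin Cd63, which sorts Pmel, had 92.3, 100.2 and 109 CPM under blue light and 61.6 and 72.2 CPM in the controls (log2 fold change 0.59, adjusted p = 0.0661 in edgeR and 6.50e-05 in DESeq2). In edgeR Cd63 passed with library totals as the only scaling (0.0486) and with a minimum mean CPM of 5 (0.0493). It did not pass in edgeR without blue A (0.0628), blue B (0.128) or blue C (0.205), nor with the block (0.462). Its log2 fold change was 0.50 without control A and 0.70 without control B. Other cells make both Apoe and Cd63. All 8 macrophage and microglia markers, none at 0 in any library, had a log2 fold change above 0 (median 1.38), against 49% of all genes. Of the 8, 0 passed in edgeR, against 2.22% of all genes. With library totals as the only scaling 4 passed, against 274 of all 18988 genes. In 7 of the 8 every blue light library lay above both controls, against 15.6% of all genes. Before adjustment 6 had a p under 0.05 in edgeR, against 16.3%. DESeq2 called 6, against 9.67%, and limma-voom 1, against 2.41%. The summed level of the 8 was 201 to 292 CPM under blue light and 79.6 and 120 CPM in the controls. Their part in the values of Apoe and Cd63 was not tested. Tspan10, a tetraspanin of pigment cells, had a log2 fold change of -0.53 (adjusted p = 0.179 in edgeR).

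Of 6 genes for moving melanosomes along the cytoskeleton 0 passed in edgeR; 2 had a p under 0.05 before adjustment, while DESeq2 called 1 and limma-voom 0 (median 0.14). Myrip, which links melanosomes of the RPE to myosin, had a log2 fold change of -0.64 (adjusted p = 0.171 in edgeR and 0.0286 in DESeq2). Sytl2 stood at 0.23, Mlph, the melanophilin of skin melanocytes, at 0.18, and Myo7a, the RPE myosin, at 0.17. Of 22 genes that sort cargo to melanosomes, among them the BLOC complexes and the adaptor AP-3, 0 passed in edgeR; 1 had a p under 0.05 before adjustment, while DESeq2 and limma-voom called 0. Their median was -0.02, with 10 above 0 and 12 below. The AP-3 subunits Ap3d1 and Ap3s1 stood at -0.24 and 0.21, the BLOC subunit Snapin at -0.18 and Lrmda, a gene of human oculocutaneous albinism, at 0.50.

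Of 6 tested signals and receptors of pigment cells 0 passed in edgeR; 2 had a p under 0.05 before adjustment, while DESeq2 called 2 (Kitl and Mc1r) and limma-voom 0. Kitl, the ligand of Kit, had 50.7, 52.1 and 47.3 CPM under blue light and 39.7 and 37.1 CPM in the controls. Its blue light libraries lay above both controls, as in 15.6% of all genes (log2 fold change 0.38, adjusted p = 0.0946 in edgeR). The Ednrb ligand Edn3 had a log2 fold change of 0.45 (adjusted p = 0.355 in edgeR). Of 11 transcription factors of pigment cells 0 passed in edgeR; 4 had a p under 0.05 before adjustment, while DESeq2 called 2 (Pax6 and Sox9) and limma-voom 0. Most of those named also act in retinal cells. Pax6 had a log2 fold change of 0.30 (adjusted p = 0.107 in edgeR), Sox9 0.57 (0.129), Tfeb 0.33 (0.238) and Otx2, which drives pigment genes in the RPE and acts in photoreceptors and bipolar cells, -0.36 (0.162).

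**Figure D4:**
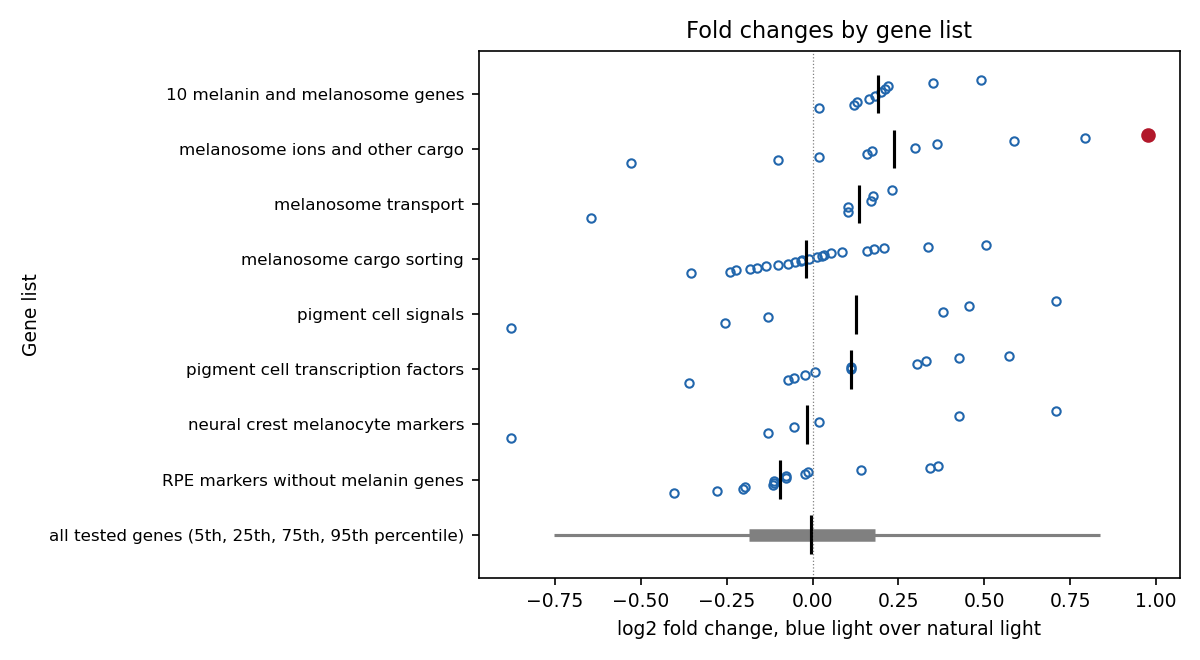
Log2 fold change, blue light over natural light, of each tested gene by list; open circles did not pass an adjusted p of 0.05 in edgeR, the filled circle (Slc7a11) did, black bars are list medians, and the bottom row gives the percentiles of all tested genes. The 10 melanin and melanosome genes lie between 0.02 and 0.49, with a median of 0.19, beside -0.09 for the RPE markers and -0.01 for all genes.

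In the RefSeq gene table, Pmel and Slc24a5 overlap other genes present in the mRNA table, and no source used here says whether counting used strand. The span of Pmel meets Rab5b, Cdk2 and Dgka, whose mean counts were 39.9%, 6.09% and 15.1% of its own, and that of Slc24a5 meets Myef2, at 96.3%. With these genes summed in, an alternative chosen after the data were seen, the log2 fold change was 0.12 for Pmel and 0.07 for Slc24a5, with adjusted p of 0.783 and 0.776 in edgeR. The annotated spans of the other 8 genes met no further gene of the table.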

How the data were processed

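The mRNA values are estimated counts per gene symbol, as the authors deposited them, not normalised; they are whole numbers, so rounding changed nothing. Low values are uneven (1051 equal to 4 and 1107 equal to 5, against 751 equal to 3), so 1 fragment may add more than 1 unit and no counting intervals are given. Per the submitters' processing notes, the build was mm10 and the tools included HISAT2, StringTie, bcl2fastq 2.0, limma and DESeq2, with no roles given. Per the labels' protocols, eyeball RNA was depleted of ribosomal RNA and primed at random. Each column carries a sample's title, and groups follow the source name; the miRNA table was not used here.

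The whole table was fitted once with edgeR 4.0.16 in R 4.3.3 (TMM, filterByExpr, quasi-likelihood F-test, Benjamini-Hochberg adjustment over 18988 genes, threshold 0.05), and genes were read from that fit. The SE is the absolute log2 fold change divided by the square root of F. Centred log2 CPM used a prior count of 2. Alternatives were DESeq2's size factors, library totals, TMM without lens, muscle, adipocyte and corneal markers, a minimum mean CPM of 5 or no filter at all, DESeq2 1.42.0, limma-voom (limma 3.58.1), the letter as a block, and leaving out each library. Values divided by 4 and overlapping genes summed were chosen after the data were seen. The pipeline was tested on simulated counts. The 10 genes and all lists were chosen with earlier results of these data known, so lists are described by counts and medians. Named were the 10 genes, in each list described by gene every gene past the threshold and up to 4 of smallest p, and the 6 nearest profiles. Transcript lengths were not used here, so levels are not compared between genes.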

Additional observations from a re-analysis of the deposited data

How the results depend on the processing

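The count of 421 called genes was 274 with library totals as the only scaling, 1729 in DESeq2, and 0 in edgeR with the letter as a replicate block, where 1455 genes were under 0.05 before adjustment; leaving out 1 library gave 0 to 311. Of the 10 melanin and melanosome genes 0 were called under each alternative except DESeq2, which called 1, Tyr (log2 fold change 0.37). Over all alternatives the log2 fold change of Tyr ran from 0.32 to 0.43. Directions turned for Mitf, from -0.16 to 0.26 over the fits that leave out 1 library, and for Pmel, from -0.15 to 0.52. Of the 150 values these alternatives gave for the 10 genes, 146 kept their direction and their side of the threshold. That count includes alternatives that could hardly move a value: TMM without the tissue markers left Tyr at 0.350, as in the main fit. With 1 library left out the median of the 10 genes ran from 0.08 to 0.35. Shared letters were not taken as pairs. Over genes, the deviations of libraries with the same letter correlated at -0.18 (A) and -0.15 (B), and blue C has no partner. With 2 controls these correlations are not separate checks, and they cannot decide whether letters mark pairs. With the replicate block the median of the 10 genes was 0.15, and Slc7a11 had a log2 fold change of 0.97 and an adjusted p of 0.264 in edgeR. In the fits without 1 control the lone control was assumed to vary like the blue light libraries. With 2 controls, the 95% intervals of the 10 genes are wide, reaching 1.09 on the log2 scale for Slc45a2.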

Other observations

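RefSeq promoter windows were matched for 46 of the 56 further pathway genes, 64 windows in all. CACGTG, the E-box that Mitf and its relatives Tfeb and Tfe3 can bind, stood in 12 of these windows (18.8%), against 7.15% of all windows. The 12 were those of Atp7a, Bloc1s1, Bloc1s3, Hps1, Hps3, Hps5, Lef1, Lrmda, Mlph, Rab27a, Trpm1 and Vps33a. GTCATGTGCT, a run defined from the windows of Tyr, Tyrp1 and Dct, stood in none of the 64, and TCATGTG in 6 of them (9.38%, against 3.77% of all windows): those of Hps1, Mc1r, Myo7a, Slc7a11, Trpm1 and Tspan10. These are matches of letters on both strands, searched after the windows were seen, with no test. Hps1 and Trpm1 held both TCATGTG and CACGTG. Of the 12 genes with CACGTG, 7 belong to the cargo sorting list of 22 genes. How many of those 22 had a window to search was not counted, so no share is given.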
